A study of Mus musculus with 2 samples.

Results

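Immediate early genes are transcribed within minutes of a stimulus without new protein synthesis. Here 38 of them, chosen by name with earlier results of these data known, were followed through the cell types of a congested mouse liver. They comprised 10 basic leucine zipper factors around AP-1, 10 factors of the Egr, Nr4a, Klf and related families, 4 genes for MAP kinase phosphatases or the kinase Sgk1, 4 genes of RNA decay and growth arrest, 2 inhibitors of NF-kappaB and 8 further stress and survival genes. All 38 symbols were found among the 28200 gene names of the count tables. Single-cell RNA sequencing (BD Rhapsody, whole transcriptome) was applied to liver cells of 2 male mice after partial inferior vena cava ligation (pIVCL), an operation that narrows the outflow vein of the liver and congests it. The knockout carried Cdh5-CreERT2 with Ctgffl/fl, where the Cdh5 promoter drives a tamoxifen-dependent Cre in endothelial cells and Ctgf is the older symbol of Ccn2, the gene of connective tissue growth factor. The control littermate carried Ctgffl/fl alone, so the floxed alleles and the ligation were common to both. Each genotype was 1 mouse and 1 library.

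The sample titles contradict the genotype labels, and groups follow the genotype, as do the library names. In endothelial cells Ccn2 stood at 5.23 CPM (counts per 1000000 summed counts of a cell type) in the library labelled knockout and 978.7 CPM in the library labelled control, as the genotype labels say. There were 10000 barcodes a library, the knockout one with 129802501 counts and 8391 cells kept, the control one with 106208933 counts and 7521 cells kept. A gate on marker genes fixed as a list placed 7555 of the kept knockout cells (90%) and 6268 of the kept control cells (83.3%) in a type. The 9 types with at least 50 cells in each library are named from those markers alone and are endothelial-like, Kupffer-like, monocyte-like, conventional dendritic-like, B-like, T-like, NK or ILC1-like, mesenchymal-like and hepatocyte-like, written below without the suffix, and types with fewer cells were not counted. Mouse, digestion, library and genotype coincide, so their effects cannot be told apart, and no p-value can be given. Intervals are exact at 95% and cover counting error only.

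AP-1 is a dimer of a Fos and a Jun protein that binds DNA, and its genes are switched on by MAP kinases through factors already present in the cell. Serum response factor acts at the CArG box and CREB at the cyclic AMP response element of such promoters, and the induced Egr proteins bind GC-rich sites. The response is ended by its own products, among them the phosphatase Dusp1, the RNA decay factor Zfp36 and the NF-kappaB inhibitor Nfkbia. In liver these genes are known to respond to partial resection, stretch, inflammatory signals and the enzymatic release of cells from tissue, which both suspensions had undergone.

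Upstream sequences are shown for 5 members whose 250 bases before the annotated start hold one of these elements, as an inducer pair (Fos and Fosb) and 3 feedback genes (Zfp36, Dusp1 and Ppp1r15a). The RefSeq promoter table matched 32 of the 38 members and has the build GRCm38.p6, which is older than the build of the counts. Egr1, Egr3, Klf10, Myc, Ier2 and Fosl1 had no entry, so the motif counts below leave them out. The sequences run 5′ to 3′ on the gene's strand, and lie at chr12:85473640-85473889 (plus strand) for Fos, chr7:19310046-19310295 (minus) for Fosb, chr7:28379229-28379478 (minus) for Zfp36, chr17:26508473-26508722 (minus) for Dusp1 and chr7:45526269-45526518 (minus) for Ppp1r15a. Capitals mark TGACG, the core of the cyclic AMP response element, in Fos and Fosb, the full element TGACGTCA in Dusp1 and Ppp1r15a, the Egr site GCGNGGGCG in Fosb and Zfp36, and the CArG box in Zfp36.
Fos: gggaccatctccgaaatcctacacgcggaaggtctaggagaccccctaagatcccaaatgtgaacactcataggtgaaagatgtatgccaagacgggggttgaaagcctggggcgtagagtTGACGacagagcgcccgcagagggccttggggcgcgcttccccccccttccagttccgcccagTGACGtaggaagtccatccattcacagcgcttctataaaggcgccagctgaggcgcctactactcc
Fosb: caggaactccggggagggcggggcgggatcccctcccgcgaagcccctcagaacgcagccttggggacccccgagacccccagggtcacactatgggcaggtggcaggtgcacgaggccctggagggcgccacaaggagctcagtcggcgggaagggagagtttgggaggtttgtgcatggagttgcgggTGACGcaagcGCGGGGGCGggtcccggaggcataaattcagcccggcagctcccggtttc
Zfp36: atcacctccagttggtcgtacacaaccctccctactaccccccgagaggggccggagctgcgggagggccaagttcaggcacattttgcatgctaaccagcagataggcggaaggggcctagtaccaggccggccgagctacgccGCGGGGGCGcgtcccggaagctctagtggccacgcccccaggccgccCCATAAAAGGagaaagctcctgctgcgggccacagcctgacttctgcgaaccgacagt
Dusp1: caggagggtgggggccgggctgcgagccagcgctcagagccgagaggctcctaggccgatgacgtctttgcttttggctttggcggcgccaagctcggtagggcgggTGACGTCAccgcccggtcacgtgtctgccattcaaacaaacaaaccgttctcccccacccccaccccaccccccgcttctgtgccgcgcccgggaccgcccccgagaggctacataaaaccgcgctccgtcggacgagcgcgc
Ppp1r15a: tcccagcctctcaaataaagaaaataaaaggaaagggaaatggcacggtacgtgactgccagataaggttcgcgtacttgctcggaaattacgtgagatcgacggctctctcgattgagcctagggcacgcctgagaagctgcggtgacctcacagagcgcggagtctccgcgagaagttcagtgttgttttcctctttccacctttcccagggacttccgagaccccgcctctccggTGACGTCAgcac
The marked runs begin 129 and 66 bases before the start in Fos, 60 (TGACG) and 50 (Egr site) in Fosb, 105 (Egr site) and 58 (CArG box) in Zfp36, 143 in Dusp1 and 12 in Ppp1r15a. Both strands were searched, and TGACG is contained in TGACGTCA, so each match of the longer motif is also one of the shorter. The 32 matched members have 47 promoters in the table, of which 24 held TGACG, 4 held TGACGTCA, 10 held the Egr site, 6 held a CArG box and 3 held the AP-1 site TGANTCA. Among all 32851 promoters of the table the shares were 17.8%, 1.55%, 4.7%, 1.47% and 6.75% in the same order. Promoters of 1 gene can overlap, and the 6 with a CArG box belong to 3 members. A match of letters is a description and not a bound site.

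Most members differed between the libraries in some cell types and not in others. A member counted as measured in a type where the libraries together held at least 20 counts of it and 1 of them at least 10 CPM, and as apart when its CPM differed by at least 1.5-fold. Of 342 combinations of member and type, 286 were measured. The member was at least 1.5-fold higher in the knockout library in 96 of these (33.6%), against 11.6% of all measured combinations of gene and type. It was at least 1.5-fold lower in 46 (16.1%), against 16% of all. The counting interval of the ratio lay wholly above 1 for 92 of the 96 and wholly below 1 for 40 of the 46. With hepatocytes left out the counts were 88 higher and 37 lower of 258, against 11.7% and 11.6% of all combinations. Since the members were chosen with earlier results of these data known, the contrasts with all genes are descriptions and not tests.

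No member measured in all 9 types was apart in all 9. Among the 37 members measured in at least 3 types, Egr3 alone was higher in every type where it was measured, which was 3 types, and none was lower in every type. That result depended on the settings, since no member was higher throughout in 7 of the alternatives, among them the 2-fold rule, the stricter cell filter and thinned cells, and under a stricter gate the one member was Dusp5 and not Egr3. In endothelial and Kupffer cells Egr3 fell short of the CPM minimum. Endothelial cells with Stab2 and Clec4g counts had 1.05 CPM of it in the knockout and 2.46 CPM in the control library. Kupffer cells with Clec4f and Timd4 counts had 3.90 and 6.22 CPM in the same order. Over all genes measured in at least 3 types, 0.372% were higher everywhere and 0.492% were lower everywhere. Monocytes were the only measured type in which Jun and Ier3 were not higher. Leaving monocytes out therefore had to add Jun (8 of 8 types) and Ier3 (4 of 4 types) to Egr3. The share of all genes higher throughout was not counted in that setting. Calls were in the higher direction only for 10 members (Fos, Fosb, Jun, Egr1, Egr3, Csrnp1, Sgk1, Ier2, Gadd45b and Ppp1r15a) and in the lower direction only for 3 (Maff, Egr2 and Mcl1). The other 24 measured members turned direction between types, and Fosl1, a Fos relative that lacks a strong activation domain, was measured in none. The shares of all genes with calls in 1 direction only or in both were not counted. Whether these patterns are particular to the members is therefore not known. Of the 24, Junb, Ier3, Zfp36, Zfp36l1 and Btg2 were lower in monocytes alone. Jund, Mafk, Klf10 and Rhob were lower in hepatocytes alone, and Ier5 in both. In hepatocytes 54.6% of all genes were lower. With monocyte cluster 18 left out (below), lower calls in monocytes numbered 3 in place of 13.

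**Figure D1:**
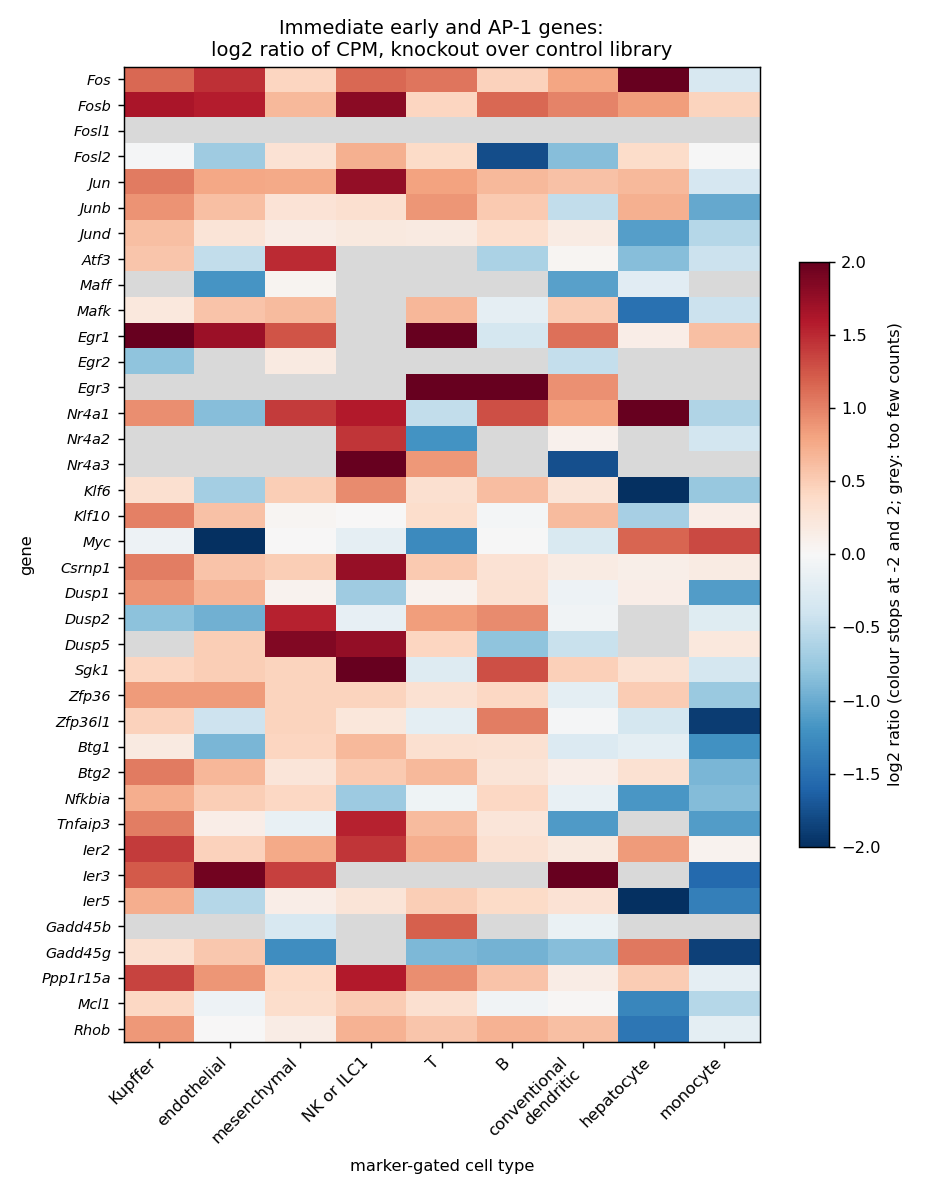
Log2 ratio of CPM, knockout over control library, for the 38 members (rows) in 9 marker-gated types (columns), with red for higher and blue for lower in the knockout library, colour ending at -2 and 2, and grey where a member was not measured. The Kupffer column is mostly red, with 19 of 31 measured members at least 1.5-fold higher, and the monocyte column is mostly blue, with 13 of 32 at least 1.5-fold lower.

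Counted by type, the members stood furthest above the rest of the genes in Kupffer cells, which are macrophages resident in the sinusoids. There 19 of 31 measured members (61.3%) were higher and 2 (6.45%) lower, against 5.74% and 6.73% of all genes, and their median log2 ratio was 0.86, against 0.01 over all genes. In endothelial cells 10 of 32 were higher and 7 lower, against 5.24% and 12.8% of all genes, with a median of 0.49 against -0.05. Mesenchymal cells, a gate that includes stellate cells, had 10 of 34 higher and 1 lower, against 7.54% and 9.51% of all genes. NK or ILC1 cells had 16 of 28 higher and 2 lower, against 19.2% and 14.6% of all genes. T cells had 13 of 33 higher and 3 lower (background 11.7% and 12.5%), and B cells 9 of 31 higher and 4 lower (background 14.5% and 12.9%). In conventional dendritic cells 9 of 37 were higher and 5 lower, against 11.7% and 9.05% of all genes. Monocytes ran the other way, with 2 of 32 higher and 13 lower against 21.1% and 15.4% of all genes. A cluster led by genes of granulocyte precursors (cluster 18) made up 49.2% of the gated monocytes in the knockout and 2.67% in the control library, and without it 6 members were higher and 3 lower. Monocyte values below include that cluster unless stated. Hepatocytes had 8 of 28 higher and 9 lower, while 10.3% of all their genes were higher and 54.6% lower. Scaling by trimmed means moved the centre of all genes by over 0.1 in 3 types, to -0.14 in endothelial cells, 0.14 in NK or ILC1 cells and -0.66 in hepatocytes. Relative to these centres 18 of 32 members were higher and 5 lower in endothelial cells, against 8.98% and 10.2% of all genes. In NK or ILC1 cells 13 of 28 were higher and 2 lower, against 14.2% and 19.3%, and in hepatocytes 16 of 28 were higher and 5 lower, against 23.3% and 16.1%.

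**Figure D2:**
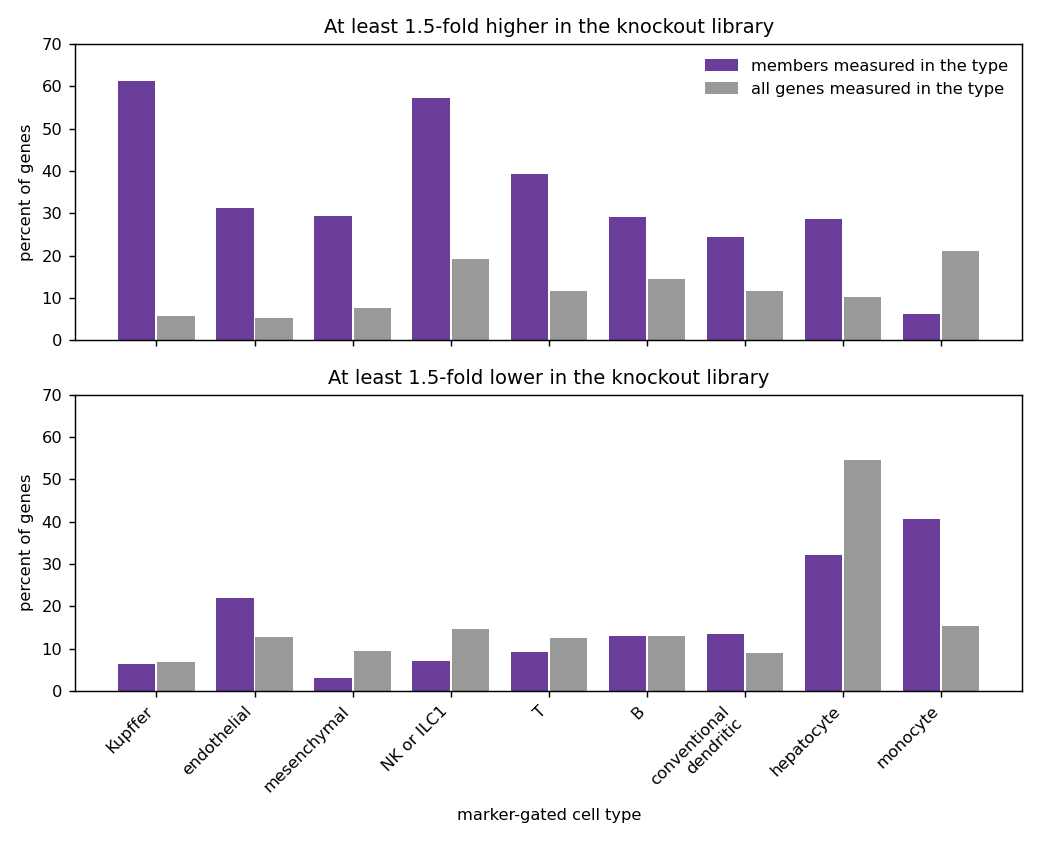
Percent of measured genes at least 1.5-fold higher (upper panel) or lower (lower panel) in the knockout library in each marker-gated type, with purple bars for the members and grey bars for all genes measured in the type. The members' bar for higher exceeds the grey bar in 8 types and falls below it in monocytes, where 40.6% of members and 15.4% of all genes were lower.

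Among the AP-1 factors, Fosb was higher in 7 and Fos in 6 of the 9 types. Fos, the prototype dimer partner of Jun, stood at 1882 CPM in knockout and 685.9 CPM in control endothelial cells, a ratio of 2.74-fold (log2 1.46, interval 1.43 to 1.49). In Kupffer cells Fos was at 1692 CPM in the knockout and 759.8 CPM in the control library (log2 1.16, interval 1.13 to 1.18). Its ratio was below 1 in monocytes alone, with 1234 CPM in the knockout and 1535 CPM in the control library (log2 -0.32, interval -0.37 to -0.26), but at 1963 and 1585 CPM in the same order (log2 0.31) without cluster 18. Fosb, which responds later and dimerizes with the same Jun proteins, was at least 1.5-fold higher in 7 of 9 types and had a ratio above 1 in all 9. It stood at 425.5 CPM in knockout and 143.0 CPM in control endothelial cells, and at 492.1 CPM in knockout and 158.3 CPM in control Kupffer cells. Its largest log2 ratio was 1.81 (1.23 to 2.41) in NK or ILC1 cells, at 261.2 CPM in the knockout and 74.5 CPM in the control library.

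Jun, the partner common to all Fos proteins, was higher in 8 of 9 types. Its level was 1398 CPM in knockout and 815.1 CPM in control endothelial cells, and 1032 CPM in knockout and 500.3 CPM in control Kupffer cells. Monocytes had 267.7 CPM of Jun in the knockout and 337.1 CPM in the control library, and 344.7 and 347.5 CPM without cluster 18. The relatives of Jun that act as weaker activators were less uniform. Junb was higher in endothelial (log2 0.61), Kupffer (0.89), T (0.89) and hepatocyte (0.71) cells and lower in monocytes (-1.03), where it had 172.6 CPM in the knockout and 352.7 CPM in the control library. Jund, which is expressed without stimulation, passed 1.5-fold upward in Kupffer cells (log2 0.60) and downward in hepatocytes (-1.10).

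Fosl2, Atf3 and the small Maf factors went in both directions. Fosl2, a slow Fos relative, was lower in endothelial (log2 -0.71), conventional dendritic (-0.85) and B (-1.78) cells and higher in NK or ILC1 cells (0.71, interval -0.24 to 1.65). Atf3, a stress-induced repressor of the same family, was at 47.8 CPM in knockout and 16.9 CPM in control mesenchymal cells (log2 1.5), and was lower in B cells (-0.63, interval -1.72 to 0.44) and hepatocytes (-0.85). Maff, which dimerizes with Nrf factors, was lower in endothelial (9.86 CPM in the knockout, 22.4 CPM in the control library) and conventional dendritic cells (log2 -1.08, interval -2.26 to 0.04). Mafk was higher in mesenchymal (log2 0.64) and T (0.66, interval -0.05 to 1.40) cells and lower in hepatocytes (-1.5).

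**Figure D3:**
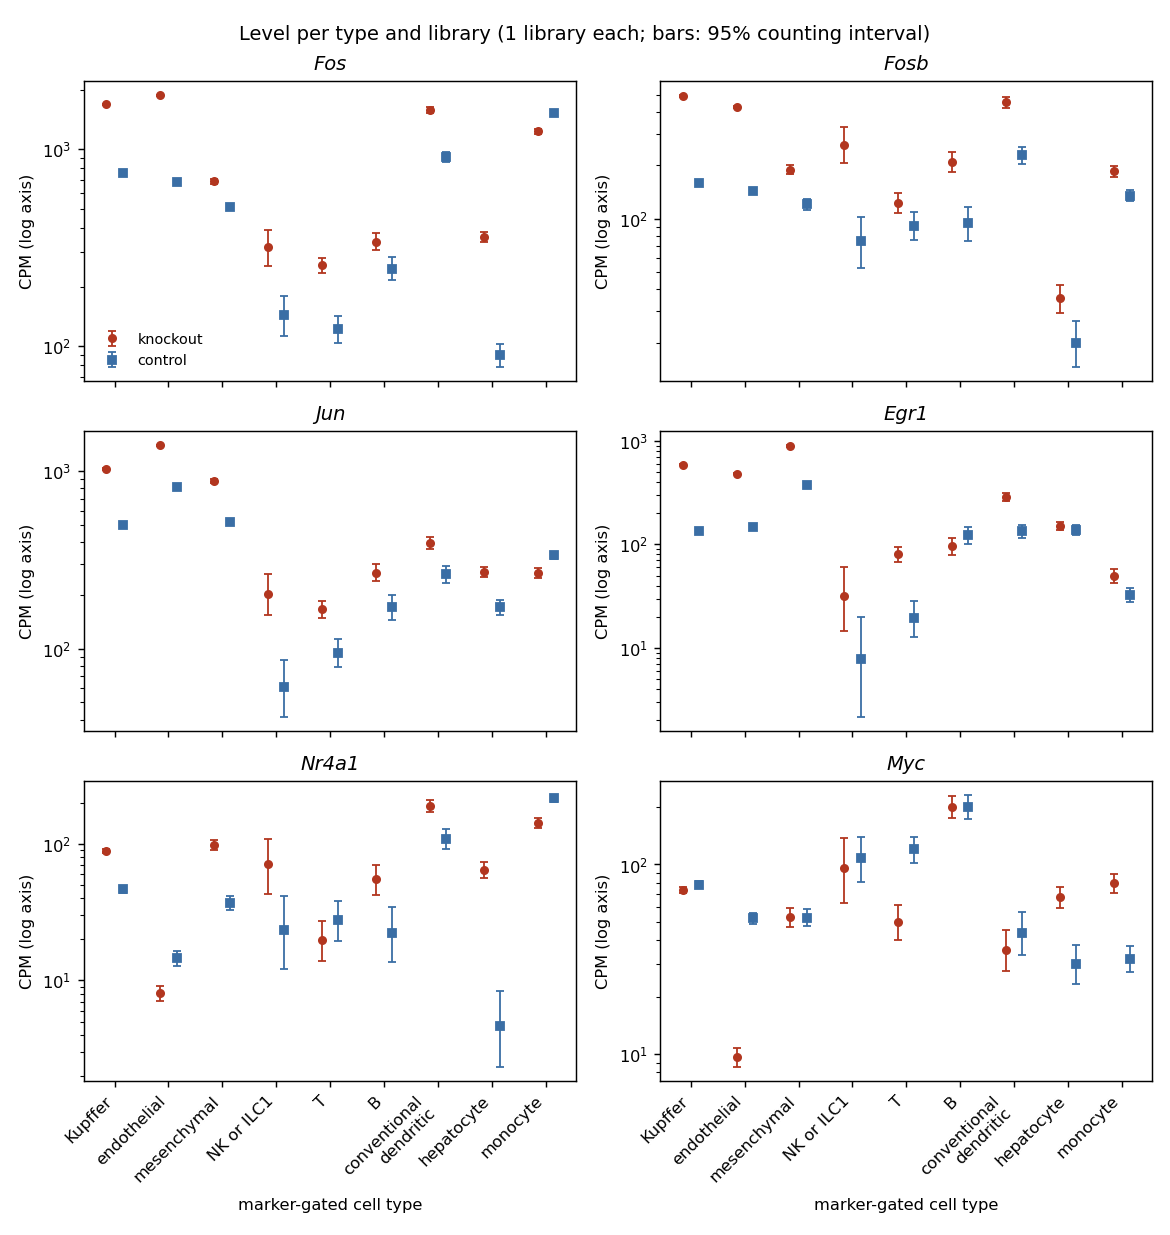
CPM (log axes, a separate range per panel) of Fos, Fosb, Jun, Egr1, Nr4a1 and Myc in the 9 types, with red circles for the knockout library on the left, blue squares for the control library on the right and bars for exact 95% counting intervals. Fosb lies higher in the knockout library in all 9 types, Fos and Jun in all but monocytes (cluster 18 included), and Myc lies far lower in knockout endothelial cells (9.6 against 52.2 CPM).

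Egr1, a zinc finger activator that is induced through serum response factor, had the largest ratio of any member in Kupffer cells. It stood there at 591.9 CPM in the knockout and 134.3 CPM in the control library (4.41-fold, log2 2.14, interval 2.09 to 2.19). In mesenchymal cells Egr1 was at 896 CPM in the knockout and 375.9 CPM in the control library, and in endothelial cells at 484.1 and 147.7 CPM in the same order. It was higher in 6 of 8 types and passed the fold in no type downward; the levels in B cells were 96.6 CPM in the knockout and 123.1 CPM in the control library (log2 -0.35, interval -0.74 to 0.04). The share of Kupffer cells with an Egr1 count was 79.2% in the knockout and 41.9% in the control library, and 71.6% and 31.4% after each cell had been thinned to 5838 counts. In thinned T cells it was 16.6% in the knockout and 7.27% in the control library (intervals 12.4 to 21.6% and 4.21 to 11.5%, which cover counting error among the cells of 1 mouse each). Free RNA cannot be separated from expression in shares this low.

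The other Egr genes were measured in few types. Egr3, known in lymphocytes as a gene induced by antigen receptors, was at 90.5 CPM in knockout and 15.7 CPM in control B cells (104 and 14 counts, log2 2.53, interval 1.72 to 3.45). In T cells 23 counts in the knockout library stood against 1 in the control library (log2 4.07, interval 1.45 to 9.44). That value rested on few cells, since Egr3 was counted in 2.8% of knockout and 0.446% of control T cells. After thinning the shares were 2.21% and 0.455% (intervals 0.817 to 4.76% and 0.0115 to 2.51%). In conventional dendritic cells the log2 ratio was 0.92 (0.23 to 1.65). Among thinned conventional dendritic cells, 7.86% in the knockout and 8.57% in the control library had an Egr3 count. Egr2, a relative known in macrophages and lymphocytes, was lower in Kupffer cells, at 5.78 CPM in the knockout and 10.1 CPM in the control library (log2 -0.80). The control level only just passed the CPM minimum. The share of Kupffer cells with an Egr2 count was 6.85% in the knockout and 6.72% in the control library. The log2 ratio was -0.59 in Kupffer cells with Clec4f and Timd4 counts, where Egr2 was not measured, and -0.22 in those without a Timd4 count. B cells thus had higher Egr3 with Egr1 within 1.5-fold. Kupffer cells had higher Egr1, with Egr2 lower in summed level but counted in a similar share of cells.

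Nr4a1, an orphan nuclear receptor induced by calcium and antigen receptor signals, was higher in 6 types and lower in 2. The 2 were endothelial cells, at 8.08 CPM in the knockout and 14.6 CPM in the control library (log2 -0.85, interval -1.11 to -0.59), and monocytes, at 142.1 and 215.3 CPM in the same order (log2 -0.60, but 0.77 without cluster 18). Mesenchymal cells had 97.4 CPM in the knockout and 36.9 CPM in the control library, and hepatocytes 64.7 CPM and 4.64 CPM (222 and 11 counts, log2 3.80, interval 2.93 to 4.83). The 5 deepest of the 82 knockout hepatocytes held 21.1% of the type's counts and 38.7% of its Nr4a1 counts, and the log2 ratio was 1.05 with at most 10% mitochondrial counts per cell. Its relatives Nr4a2 and Nr4a3 were both higher in NK or ILC1 cells (log2 1.43 and 2.09). Nr4a2 was lower in T cells (-1.19, interval -2.36 to -0.09). Nr4a3 was higher in T cells (0.87, interval -0.24 to 2.09) and lower in conventional dendritic cells, at 23.4 CPM in the knockout and 79.3 CPM in the control library.

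Myc, a growth-promoting factor, had the lowest ratio of any member in endothelial cells. It stood at 9.6 CPM in the knockout and 52.2 CPM in the control library (290 and 881 counts, log2 -2.44, interval -2.64 to -2.25). T cells had 49.9 CPM in the knockout and 120.1 CPM in the control library (log2 -1.27). In monocytes Myc stood at 79.4 CPM in the knockout and 31.8 CPM in the control library (log2 1.32), but without cluster 18 at 9.55 and 30.4 CPM (log2 -1.67). Hepatocytes had 67.0 and 29.9 CPM in the same order (log2 1.16), and -0.13 in thinned cells. Klf6, a zinc finger factor of endothelial and stellate cell injury responses, was lower in endothelial cells (223 CPM in the knockout, 359.1 CPM in the control library), monocytes (log2 -0.76) and hepatocytes (-3.77) and higher in B (0.62) and NK or ILC1 (0.95) cells. Klf10, which is induced by TGF-beta, was higher in Kupffer (log2 1.0) and conventional dendritic (0.63) cells and lower in hepatocytes (-0.66). Csrnp1, a nuclear protein induced by AXIN1 in human cells, was higher in Kupffer (1.02) and NK or ILC1 (1.74) cells and had a ratio above 1 in all 9 types.

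Within the feedback arm, Dusp1 was higher in endothelial and Kupffer cells and lower in monocytes, and the other phosphatases varied by type. Dusp1, which removes phosphate from JNK, p38 and ERK, was at 589.4 CPM in knockout and 370.0 CPM in control endothelial cells and at 1063 CPM in knockout and 572.5 CPM in control Kupffer cells. It was lower in monocytes, at 323.6 CPM in the knockout and 704.7 CPM in the control library, and in NK or ILC1 cells (log2 -0.71, interval -1.52 to 0.04). Dusp2, an inducible phosphatase of activated lymphocytes, was higher in B (469.8 CPM in the knockout, 244.1 CPM in the control library), T (949.7 and 532.3 CPM) and mesenchymal cells (log2 1.54). The mesenchymal value rested on few cells, since Dusp2 was counted in 2.89% of knockout and 4.42% of control mesenchymal cells. It was lower in endothelial (log2 -0.97) and Kupffer (-0.81) cells. Dusp5, which acts on nuclear ERK, was at 65.2 CPM in knockout and 18 CPM in control mesenchymal cells (log2 1.85) and at 356.5 and 105.9 CPM in NK or ILC1 cells, and it was lower in B cells (-0.81, interval -2.08 to 0.41). Sgk1, a kinase induced by serum and glucocorticoids, was higher in B (log2 1.29) and NK or ILC1 cells (60.0 CPM in the knockout, 9.8 CPM in the control library, from 17 and 5 counts).

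Among the RNA decay and growth arrest genes, Zfp36, which destabilizes cytokine messages, was at 1640 CPM in knockout and 904.7 CPM in control Kupffer cells and at 1011 and 561.5 CPM in endothelial cells. In monocytes Zfp36 was lower, at 860.5 CPM in the knockout and 1447 CPM in the control library. Its relative Zfp36l1 was at 1304 CPM in knockout and 643.7 CPM in control B cells and at 126.0 CPM in knockout and 467.9 CPM in control monocytes (log2 -1.89). The antiproliferative gene Btg2 was higher in endothelial (log2 0.67), Kupffer (1.05) and T (0.65) cells and lower in monocytes (-0.91). Its relative Btg1 was higher only in NK or ILC1 cells (0.65) and lower in endothelial cells (-0.91) and monocytes (-1.22). Nfkbia, which holds NF-kappaB in the cytoplasm, was higher in Kupffer cells (806.3 CPM in the knockout, 489.6 CPM in the control library) and lower in monocytes (log2 -0.87), NK or ILC1 cells (-0.72) and hepatocytes (-1.16). Tnfaip3, a ubiquitin-editing inhibitor of NF-kappaB, was higher in Kupffer (1.02), T (0.63) and NK or ILC1 (1.54) cells and lower in monocytes (-1.12) and conventional dendritic cells (-1.14).

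Of the 8 remaining stress and survival genes, 5 were higher in Kupffer cells and 3 were lower in monocytes. Of all genes, 5.74% were higher in Kupffer cells and 15.4% were lower in monocytes. With monocyte cluster 18 left out, Ier3 and Gadd45g were still called lower in monocytes and Ier5 was not. Ppp1r15a, a phosphatase subunit that restores translation after stress, was higher in endothelial (216.2 CPM in the knockout, 117.1 CPM in the control library), Kupffer (219.9 and 86.6 CPM), T (log2 0.93) and NK or ILC1 (1.59) cells. Ier2, an early nuclear protein, was higher in 5 types and had a ratio above 1 in all 9, with 146.7 CPM in knockout and 55.5 CPM in control Kupffer cells. Ier3, which modulates cell death, had the largest ratio of any member in endothelial cells, at 91.4 CPM in the knockout and 24.1 CPM in the control library (log2 1.92, interval 1.77 to 2.08). In conventional dendritic cells Ier3 rested on 40 and 5 counts (log2 2.58, interval 1.24 to 4.28), and in monocytes it was lower (-1.55). Ier5, a regulator of heat shock factor, was higher in Kupffer cells (log2 0.73) and lower in monocytes (74.8 CPM in the knockout, 193.7 CPM in the control library) and hepatocytes (-2.22).

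Gadd45g, a stress sensor that activates p38 and JNK, was lower in 5 types. Its levels were 16.3 CPM in knockout and 38.4 CPM in control mesenchymal cells and 7.06 CPM in knockout and 25.9 CPM in control monocytes, and it was also lower in conventional dendritic (log2 -0.84), B (-0.95, interval -2.04 to 0.10) and T (-0.90, interval -2.17 to 0.32) cells. In hepatocytes it was higher, at 142.5 CPM in the knockout and 68.3 CPM in the control library. Gadd45b was called in T cells alone (22 and 7 counts, log2 1.2, interval -0.08 to 2.67). Mcl1, an antiapoptotic protein with a short half-life, was called in hepatocytes alone (75.8 CPM in the knockout, 188.1 CPM in the control library). Rhob, an early-induced GTPase, was higher in Kupffer (1095 CPM in the knockout, 597.4 CPM in the control library), conventional dendritic (log2 0.61), B (0.70) and NK or ILC1 (0.70) cells and lower in hepatocytes (-1.45).

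The difference was spread over the cells of most types. After each cell had been thinned to 1 fixed number of counts within its type, the summed counts of the 38 members per 10000 had a median of 142.2 in knockout and 78.8 in control Kupffer cells. The 10th percentile of knockout Kupffer cells, 84.6, lay above the control median. Endothelial medians were 112.8 in the knockout and 83.4 in the control library, with equal 10th percentiles of 41.7 and 90th percentiles of 198.6 and 127.5, so the libraries differed at the median and above and not at the 10th percentile. Mesenchymal medians were 91.5 in the knockout and 54.9 in the control library. In monocytes the medians were 70.1 and 91.2, and the 10th percentiles 18.7 and 53.8, in the same order, while the 90th percentiles, 147.8 and 140.3, were close.

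**Figure D4:**
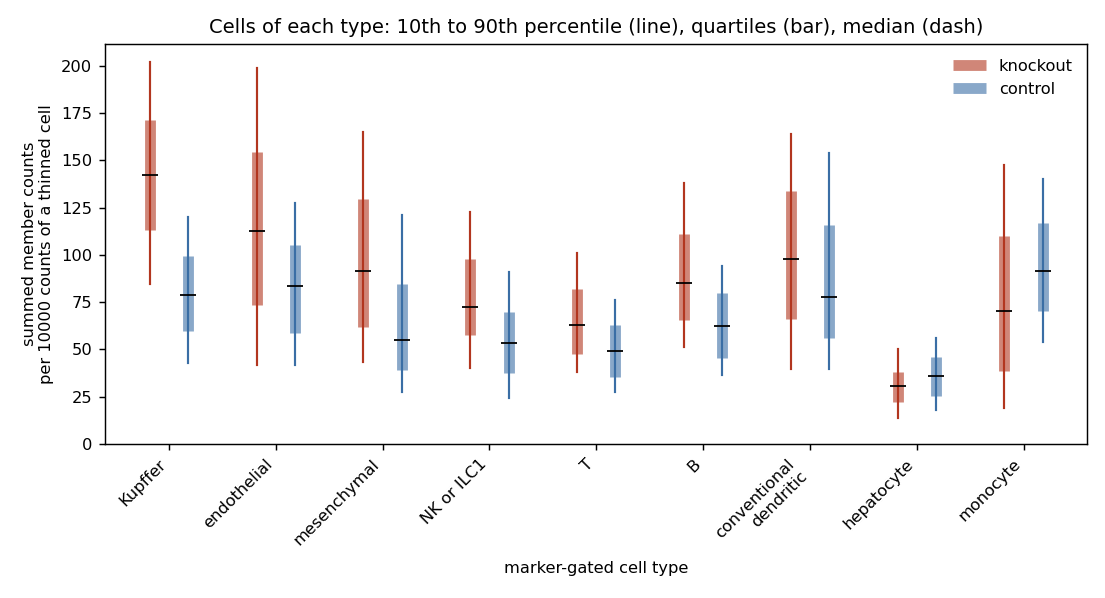
Summed member counts per 10000 counts in single cells thinned to 1 depth per type, with red for the knockout library on the left, blue for the control library on the right, dashes for medians, bars for quartiles and lines from the 10th to the 90th percentile. Medians are higher in the knockout library in 7 types, most widely in Kupffer cells (142.2 against 78.8), and lower in hepatocytes (30.5 against 35.6) and monocytes (70.1 against 91.2).

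Clusters drawn without the 38 genes gave the same direction in nearly all Kupffer and endothelial groups. In Kupffer cells the summed member level was higher in the knockout library in 5 of 6 clusters with at least 20 cells in each library, by up to 1.89-fold (cluster 1), and lower in cluster 9 (0.80-fold, 32 and 91 cells). In endothelial cells it was higher in 8 of 8 clusters, by 1.13- to 1.45-fold. In mesenchymal cells it was 1.5-fold higher in cluster 4 (511 and 530 cells) and 0.75-fold in cluster 11 (32 and 49 cells). Some of these clusters as a whole matched no type, namely 8, 9 and 25 of the Kupffer, 15 and 25 of the endothelial and 11 of the mesenchymal clusters. Cluster 25 was counted for both Kupffer and endothelial cells, so the clusters are not independent groups. The libraries filled different clusters, since endothelial cluster 3 held 1255 knockout and 19 control cells. Cells in which both sinusoidal markers Stab2 and Clec4g were counted (3503 and 1754) had 11 members higher and 7 lower of 32, against 5.17% and 12.3% of all genes. Kupffer cells with Clec4f and Timd4 counts (1854 and 1176) had 19 higher and 0 lower of 30, against 4.68% and 6.18% of all genes, and those without a Timd4 count (92 and 542) had 15 higher and 1 lower of 33, against 12.2% and 13.8%. Mesenchymal markers, all 13 of them counted in both libraries, summed to 1720 CPM in knockout and 730.6 CPM in control Kupffer cells, and their part in the result was not tested. A stricter gate, which allowed no more than 1 marker of any other type, kept only 36 knockout and 49 control Kupffer cells with median depths of 5148 and 4960 counts. In those, 6 of 25 members were higher and 2 lower, against 14.9% and 18% of all genes, Egr1 stayed higher (log2 1.81), and Fos turned to -0.38.

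**Figure D5:**
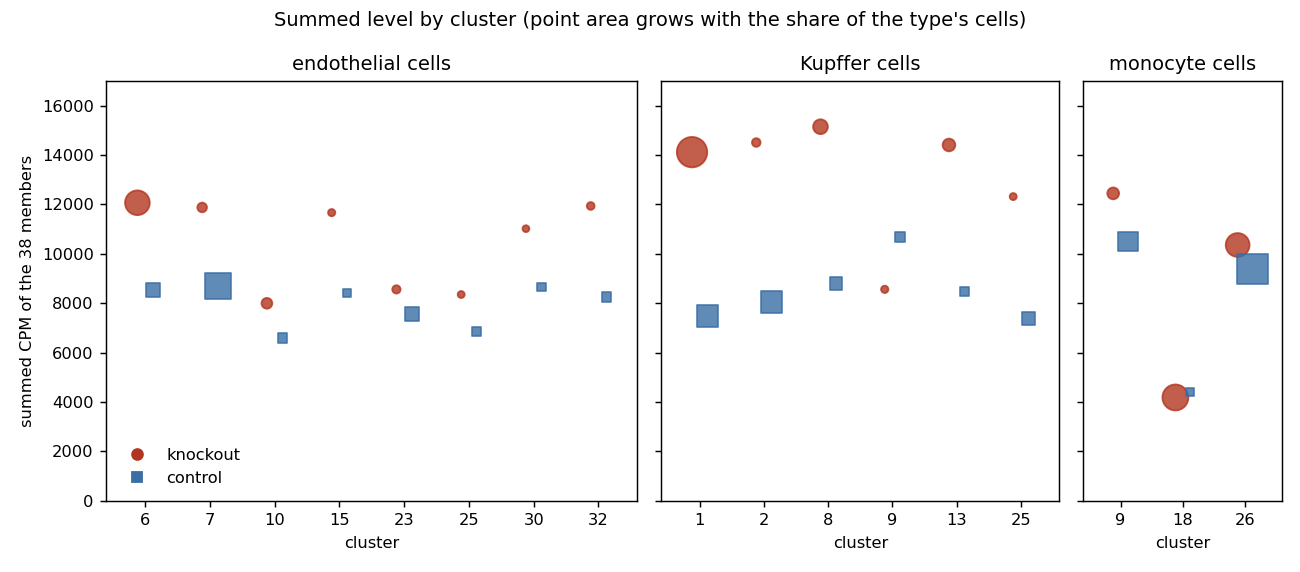
Summed CPM of the 38 members in each cluster with at least 20 cells of the type in both libraries, with red circles for the knockout library on the left, blue squares for the control library on the right and point area growing with the cluster's share of the type. All 8 endothelial and 5 of 6 Kupffer clusters are higher in the knockout library, and monocyte cluster 18 lies low in both libraries (4185 and 4399 CPM). Clusters 8, 9, 15 and 25 as a whole matched no type, and cluster 25 appears among both endothelial and Kupffer cells.

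The make-up of the gated monocytes differed between the libraries, and its part in their lower levels was not tested. Cluster 18, led by Ctsg, Mpo, Prss34, Mcpt8 and Elane, genes of granulocyte precursors and mast or basophil lineages, held 49.2% of the gated monocytes of the knockout library and 2.67% of those of the control library. The members summed to 4185 CPM in knockout and 4399 CPM in control cells of that cluster, to 10360 and 9400 CPM in cluster 26 and to 12450 and 10500 CPM in cluster 9. Cluster 9 held 20 knockout and 226 control gated monocytes, and as a whole it matched no type. With cluster 18 left out, a choice made after seeing the data, 124 knockout and 802 control monocytes remained, and 6 members were higher and 3 lower of 32, against 8.27% and 9.57% of all genes. The lower calls were then 3 (Myc, Ier3 and Gadd45g) in place of 13, and among called members Nr4a1, Myc and Zfp36 turned direction, to log2 ratios of 0.77, -1.67 and 0.19. The log2 ratio of Fos, which was not called in either case, turned to 0.31. Fosb (275.9 CPM in the knockout, 137.1 CPM in the control library), Atf3, Egr1, Nr4a1, Csrnp1 and Dusp5 were higher there. Over all combinations the counts were then 100 higher and 36 lower, against 10.1% and 15.4% of all combinations.

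Small types carried further limits. Hepatocytes were the few left after their removal from the suspension (82 knockout and 257 control cells), and their median mitochondrial share was 12.1% in the knockout and 1.14% in the control library. With at most 10% mitochondrial counts per cell, the hepatocyte log2 ratio of Fos was 0.60 and that of Nr4a1 1.05. NK or ILC1 cells numbered 50 in the knockout and 89 in the control library, and endothelial markers in them, 13 of 14 counted in each, summed to 967.3 CPM and 276.4 CPM. The endothelial RNA carried in them, estimated from these markers, came to 4.26% of their counts in the knockout and 1.7% in the control library. With endothelial and Kupffer RNA subtracted on that estimate, a choice made after seeing the data, 13 of 26 members were higher and 2 lower, against 17.7% and 16% of all genes.

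Lists of pathway genes that are not members were counted in the same way. Of all genes, 5.24% were higher and 12.8% lower in endothelial cells, and 5.74% were higher and 6.73% lower in Kupffer cells. Of 18 kinases upstream of AP-1, 0 were higher and 1 lower of 17 measured in endothelial cells (Map3k5, 8.18 CPM in the knockout and 15.8 CPM in the control library), and 1 higher and 0 lower of 18 in Kupffer cells (Map3k8, 87.4 and 55.7 CPM). Serum response factor and its partners had 0 higher and 1 lower of 6 in endothelial cells, the one being Srf itself (11.1 CPM in the knockout, 25.2 CPM in the control library), and none apart of 6 in Kupffer cells. Partners and relatives of AP-1 had 1 higher and 3 lower of 14 in endothelial cells, and 0 higher and 1 lower of 17 in Kupffer cells, where Atf5 was at 3.61 CPM in the knockout and 10.1 CPM in the control library.

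Of 36 other early response genes, 6 were higher and 3 lower of 28 in Kupffer cells, against 5.74% and 6.73% of all genes. The higher ones included the zinc finger factor Klf4 (173.3 CPM in the knockout, 72.2 CPM in the control library). In endothelial cells 7 were higher and 7 lower of 32, against 5.24% and 12.8% of all genes. There Rgs2, a brake on G protein signalling, was at 37.9 CPM in the knockout and 177.8 CPM in the control library. Mesenchymal cells had 7 higher and 4 lower of 32, against 7.54% and 9.51% of all genes. Among them was Ccn1, the relative of Ccn2, at 1179 CPM in the knockout and 196.5 CPM in the control library (log2 2.58). Of 14 NF-kappaB pathway genes, 4 were higher and 0 lower of 13 in Kupffer cells, led by the inducible inhibitor Nfkbiz (148.6 CPM in the knockout, 70.0 CPM in the control library), and 0 higher and 1 lower of 13 in endothelial cells (Bcl3, log2 -1.54). Heat shock genes had 3 higher and 0 lower of 14 in both endothelial and Kupffer cells. Hspa1b led in endothelial cells (log2 2.00) and Hspa1a in Kupffer cells (1.69). Hspa1b was higher in every counted type except hepatocytes, where it was lower (8.16 CPM in the knockout, 15.6 CPM in the control library). In conventional dendritic cells it was at 104.2 and 2.18 CPM in the same order. There 5 of 13 heat shock genes were higher and 0 lower, against 11.7% and 9.05% of all genes. In monocytes 10 of 13 heat shock genes were higher and none lower, with Hspa1b at 107.6 CPM in the knockout and 2.89 CPM in the control library, while 14 of 27 other early response genes were lower; of all monocyte genes 21.1% were higher and 15.4% lower. Without cluster 18 the counts in monocytes were 2 higher and 1 lower of 13 heat shock genes, and 4 higher and 2 lower of 27 other early response genes. Of all monocyte genes 8.27% were then higher and 9.57% lower. The median log2 ratio of all genes in endothelial, Kupffer, mesenchymal, conventional dendritic and monocyte cells lay between -0.05 and 0.10.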

How the data were processed

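Deposited values were whole-number counts per gene and barcode of 1 knockout and 1 control library, not normalized by the authors per the file headers and the values themselves. The submitters' processing notes name GRCm39. How reads were aligned and counted, how cells were called and whether identifiers were collapsed is not given by the sources used here, so intervals may be too narrow even for counting error. The upstream sequences come from RefSeq with GRCm38.p6.

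Groups follow the genotype label. The 38 members, the markers and the other gene lists were chosen with earlier results of these data known. Members were matched by symbol. Members were named with values where they were apart in the same direction in every measured type, where their direction turned between types, or where they were among the 3 highest or 3 lowest past 1.5-fold in a type. From each further list up to 2 members of large ratio were named in the types shown.

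A barcode passed with 300 or more genes, 500 or more counts and a mitochondrial share up to 25%. Scrublet's automatic threshold marked 0 of 8996 knockout and 1 of 8218 control barcodes and had not worked, so the top 5% of scores were removed, which took 408 and 396 of the cells that passed. The files share 2 barcode names, which are index numbers. A cell was gated to a type with at least 3 of its markers, a level of at least 0.2 of the type's upper level, and no other type at over 0.5 of its own relative level. Counts were summed per type and library and scaled to CPM, with exact Poisson intervals for levels, exact conditional intervals for ratios and exact Clopper-Pearson intervals for shares. No ratio was given where both counts were at or under a floor of 3, and otherwise a count of 0 was set to the floor. Clusters came from 2000 variable genes without the members, 30 components, 15 neighbours and Leiden resolution 1. Thinning used the 10th percentile of depth in the type and left out shallower cells. Ratio code was tested on simulated data. Analyses ran in Python 3.11.15 with Scanpy 1.11.5, NumPy 2.4.6, SciPy 1.17.1 and pandas 2.3.3. The alternatives changed the scaling, the filters on genes and cells, the fold, the gate, the doublets, the summing, the depth and the make-up of types.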

Additional observations from a re-analysis of the deposited data

Results flagged for a closer look

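The summed level of the 38 members in monocytes had a log2 ratio, knockout over control, of -0.62, opposite in sign to the 7 types in which it was above 0. The difference between types was not tested, since each genotype had 1 library, and the count of lower members was 3 with cluster 18 left out, against 13 with it.

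The summed level in hepatocytes had a log2 ratio of -0.14, against a median of -0.66 over all hepatocyte genes. It was flagged for the same opposite sign, which was not tested either.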

How the results depend on the processing

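Under 17 alternative settings the counts of 96 higher and 46 lower combinations stayed within 1.5 times, except that the lower count was 24 with at least 100 counts and 50 CPM, 24 at 2-fold, 29 under the stricter gate and 29 in thinned cells, and the higher count was 49 at 2-fold. The count of members higher in every measured type, 1 as reported, was 0 with 100 counts and 50 CPM, with 1 count and no CPM minimum, at 2-fold, under the stricter cell filter, with clusters in place of the gate, with doublets kept and in thinned cells, and 3 with monocytes left out, and under the stricter gate the 1 member was Dusp5. No member was lower in every type under any of them. Called log2 ratios that changed sign, for causes not tested, were in hepatocytes Klf10 under trimmed means (0), Junb (-0.03), Klf10 (0.74) and Ier2 (-0.15) under the stricter cell filter, Atf3 (0.06) and Klf10 (0.54) as per-cell means and Myc (-0.13) in thinned cells. Under the stricter gate they were Fos (-0.38), Dusp1 (-0.08) and Zfp36 (-0.37) in Kupffer cells and Klf6 (-0.88) in NK or ILC1 cells, which kept 5 cells in 1 library. With clusters they were Atf3 (0) and Sgk1 (-0.19) in B cells and Nfkbia (0.35) in NK or ILC1 cells, where thinning turned Fosl2 (-0.26). In cells with neither Stab2 nor Clec4g (9 knockout cells) they were Klf6 (0), Dusp1 (-0.56) and Btg1 (0.15) of endothelial cells, and in Kupffer cells without Timd4, Ier3 (-0.37). In monocytes Nr4a1 was 0.06 as a per-cell mean, 0.32 in cells with Ace or Treml4 and 0.77 without cluster 18, Myc was -0.07 and -1.67 in those last 2 settings, and Zfp36 was 0.19 without cluster 18. No paired analysis was possible because each genotype has 1 library and no test was made; for the same reason no replicate could be left out. Members under 20 counts, among them Fosl1 in all 9 types, could not be judged at this depth.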
